A study of Mus musculus with 4 samples.

Results

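The loci described here are those of 39 interferon response genes in regulatory T (Treg) cells, examined in ATAC-seq libraries of sorted cells. The genes were taken from a list of interferon receptors, signalling factors, sensors and induced genes, all of which were found among the 22020 protein-coding and polymorphic pseudogene entries of the annotation (GENCODE, GRCm38, which has the coordinates of mm10). A locus was the gene body with 5 kb on either side. Peaks of the 4 libraries that overlapped by at least 1 bp were joined into 272233 regions, of which 156 lay at these loci. A promoter peak was the strongest peak within 1 kb of an annotated transcription start site (TSS).

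The cells were Foxp3+ CD4+ Treg cells from lymph nodes (LNs) of C57BL/6 mice aged 6 to 8 weeks and housed without stimulation, sorted by the red fluorescent protein of the Foxp3 Rfp/Rfp reporter that both genotypes carried, with 50000 cells per library. The groups were wild type (WT) and Il2ramut/mut, with 2 libraries each from 2 mice each. The mutation is a spontaneous amino-acid exchange in CD25, the α chain of the IL-2 receptor, that lowers surface CD25 and the response to IL-2. It arose in a Ccr2-/- colony and was bred away from the Ccr2 deletion. All cells of these mice carry it, so an effect within Treg cells and an effect of the altered surroundings cannot be told apart. Since each library is a bulk of cells, a site open in fewer cells and a site less open in each cell cannot be told apart either.

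Type I interferons signal through IFNAR1 and IFNAR2 to the kinases JAK1 and TYK2, which phosphorylate STAT proteins, STAT2 among them. With IRF9 these form a complex that binds the interferon-stimulated response element (ISRE). Interferon γ uses the IFNGR chains, and its signal reaches the γ-activated site (GAS). The induced genes encode sensors of foreign nucleic acid, proteins that block viral replication, GTPases that act on intracellular pathogens, and regulators that restrain the response. In T cells at steady state a low tonic signal is known to keep part of this gene set poised.

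The files list called peaks without read totals, and sequencing depth is therefore unknown. The lists held 112569 to 142732 peaks. Each peak carried a fold enrichment and a −log10 p at its summit, and the fold enrichment corresponded to a whole number of fragments over 1 background level per library in 100% of peaks. The number of fragments at the summit is therefore given with the ranks, and its counting error is the only precision that a single library allows. The background level was 0.974 and 0.979 fragments in WT replicates 1 and 2 and 1.23 and 1.06 in Il2ramut/mut replicates 1 and 2. Fragment numbers are not scaled for it, so they are not directly comparable between libraries. The percentile is the rank of a peak by −log10 p among all peaks of its own library, from 0 to 100. WT replicate 2 had the steepest range, with a median enrichment of 26.8 at promoters with a peak in every library against 19.2 in WT replicate 1 and 22.4 in both Il2ramut/mut libraries. Although the mice are labelled female, all 4 libraries held promoter peaks at the Y-linked genes Ddx3y, Eif2s3y and Uty, at percentiles of 86.7 to 92.6, which goes against that label in both genotypes, while the fourth Y-linked gene examined, Kdm5d, had none in any library. No member is on a sex chromosome. The labelled cell type was met by promoter peaks at 8 of 8 Treg and CD4 T cell markers in all libraries. No promoter peak was called in any library at 4 of 4 B cell and 2 of 2 NK cell markers, at Cd8a, or at 4 of 5 myeloid markers. Cd8b1 had peaks in every library (84.2, 84.5, 66.2 and 76.5). The stromal or endothelial genes Col1a1 and Pecam1 had peaks in every library too.

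The ISRE core, a DNA word bound by the complex of STAT proteins and IRF9, was searched for in the promoter peaks of the members. A window of 300 bases centred on the summit of the promoter peak was read on both strands for this core, which is GAAA, any pair of bases and GAAA, and for the GAS, TTCNNNGAA. The ISRE core was present in 20 of 39 members (51.3%) and in 399 of 14104 coding genes with a promoter peak (2.83%). The GAS was present in 11 members (28.2%) and in 6.04% of the coding genes, and 5 members held both words. The members were listed as interferon response genes, so the difference from other genes describes the list and is no result on IL-2. A match is a run of letters and not a measured binding site.

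The 12 promoters with the highest mean percentile among those with an ISRE core are printed to show the word in its context, on the strand of the gene (mm10), with the core in capitals. Where the word reads against the gene it appears as TTTC, a pair of bases and TTTC. Overlapping copies are joined in one run of capitals. Only cores that lie wholly within the window searched are in capitals. The Bst2 stretch holds a further core that overlaps the marked one on its upstream side. It runs past the edge of that window, so its upstream part is in lower case and it was not counted.
Irf2, chr8:46739479-46739538, plus strand: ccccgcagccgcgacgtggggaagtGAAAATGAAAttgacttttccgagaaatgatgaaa
Rsad2, chr12:26456538-26456597, minus strand: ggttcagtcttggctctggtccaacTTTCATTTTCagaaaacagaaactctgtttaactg
Zbp1, chr2:173218934-173219047, minus strand: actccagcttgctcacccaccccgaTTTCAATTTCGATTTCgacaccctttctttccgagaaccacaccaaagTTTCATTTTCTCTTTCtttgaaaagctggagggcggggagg
Bst2, chr8:71537562-71537621, minus strand: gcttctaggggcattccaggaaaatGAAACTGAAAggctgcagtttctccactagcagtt
Ifit1, chr19:34640760-34640838, plus strand: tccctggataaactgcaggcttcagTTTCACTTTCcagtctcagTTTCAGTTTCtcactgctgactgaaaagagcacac
Usp18, chr6:121245798-121245881, plus strand: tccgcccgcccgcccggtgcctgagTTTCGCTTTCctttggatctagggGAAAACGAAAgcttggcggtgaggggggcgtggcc
Isg20, chr7:78913901-78913960, plus strand: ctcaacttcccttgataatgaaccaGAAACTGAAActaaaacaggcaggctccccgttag
Ifih1, chr2:62646189-62646248, minus strand: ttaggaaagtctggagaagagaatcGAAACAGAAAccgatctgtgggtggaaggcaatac
Gbp3, chr3:142560510-142560569, plus strand: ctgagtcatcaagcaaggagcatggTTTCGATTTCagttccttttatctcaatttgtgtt
Gbp7, chr3:142530258-142530317, plus strand: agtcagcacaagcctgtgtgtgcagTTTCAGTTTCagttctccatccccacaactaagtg
Igtp, chr11:58199497-58199556, plus strand: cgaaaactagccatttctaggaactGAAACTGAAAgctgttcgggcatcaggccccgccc
Oasl2, chr5:114897444-114897532, plus strand: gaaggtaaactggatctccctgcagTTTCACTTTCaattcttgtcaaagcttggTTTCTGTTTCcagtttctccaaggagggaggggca

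Within the window searched, the 20 members held 32 cores in all, and 7 of them held more than 1. Zbp1 and Rtp4 held 4 each. The core nearest to the summit lay 10 to 140 bases from it, with a median of 41 bases. Most cores sat just upstream of the start of transcription, with 22 of 32 within 100 bases before the nearest TSS. Among the members without an exact core in that window were Ifit2, Mx1, Mx2, Oasl1, Irf7 and Stat2. Stat2 and Parp14 held a core in a wider window of 500 bases on the summit. The Oasl1 window was centred 1191 bases upstream of the TSS. For Ifit3, Ddx58 and Gbp2 the core was found only in the window from 250 bases before to 50 after the TSS.

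**Figure D1:**
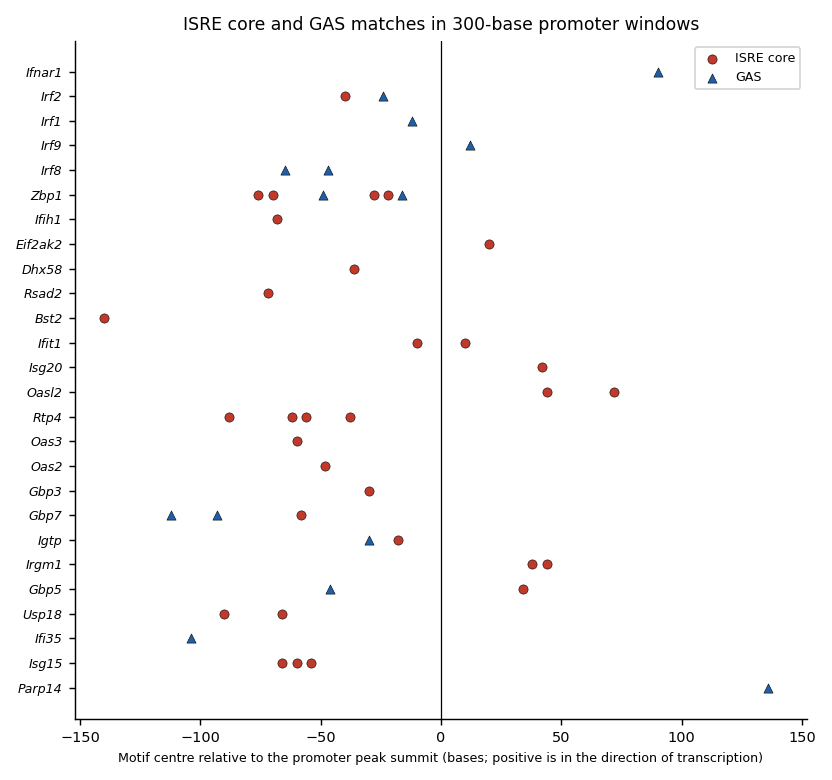
Position of each ISRE core (circles) and GAS (triangles) match relative to the summit of the promoter peak, in bases, with positive values in the direction of transcription. Each row is 1 of the members with a match. The nearest ISRE core to the summit lay 10 to 140 bases from the summit in the 20 members that hold one.

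Nearly all of these promoters were open in LN Treg cells of both genotypes. A promoter peak was called in all 4 libraries at 36 of 39 members, while 51.9% of the 22020 coding genes had one. With peaks within 500 bp of a TSS in place of 1 kb the number was 34 members, as Oasl1 and Gbp2 dropped out. The mean percentile over the 4 libraries had a median of 91.1 among the 36 members and of 94.3 among all 11425 coding genes with a peak in every library. Of the 36 members, 20 had a mean percentile of at least 90 (55.6%), against 71.5% of all such genes. The 19 members with an ISRE core had a median of 89.9 and the 17 without one a median of 94.0.

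The transcription factors had the highest group median of mean percentiles, 97.9, and all 6 stood at a percentile of at least 90 in each library. Stat2, a subunit of the ISRE-binding complex, stood at the 98.1st and 97.8th percentile in WT and the 98.1st and 98.9th in Il2ramut/mut. Irf7, which amplifies type I interferon production, was the lowest of them at 95.7 and 94.7 in WT and 93.3 and 96.7 in Il2ramut/mut. Irf1, Irf2, Irf9 and Irf8 lay between these, with mean percentiles of 95.9 to 98.1. The widest gap between replicates of a genotype was that of Irf7 in Il2ramut/mut.

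The receptor chains differed from each other. Ifnar1 stood at 98.4 and 96.8 in WT and at 98.0 and 99.1 in Il2ramut/mut, with 79, 76, 91 and 118 fragments at the summit. Ifnar2, the chain that binds interferon with high affinity, stood at 83.2 and 86.8 in WT and at 80.6 and 84.5 in Il2ramut/mut, with 15, 24, 15 and 15 fragments. In every library the Ifnar1 promoter thus stood above that of Ifnar2.

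The sensors covered a wider range. Zbp1, a sensor of Z-form nucleic acid, stood at 93.3, 93.9, 94.9 and 94.7 in WT replicates 1 and 2 and Il2ramut/mut replicates 1 and 2. Dhx58, which encodes LGP2, was the lowest at 78.2, 71.3, 83.0 and 87.7 in the same order, with 12, 11, 17 and 19 fragments. Between them lay Ifih1 (MDA5), Ddx58 (RIG-I) and Eif2ak2 (the kinase PKR), with mean percentiles of 91.7, 87.3 and 84.4.

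The antiviral effectors ranged widely and held the 3 members without a reproducible peak. Oasl1, a regulator of Irf7 translation, stood at 97.1, 96.8, 95.6 and 97.5 and was the highest of the 14. The summit of that Oasl1 peak lay 1191 bases upstream of the nearest TSS in Il2ramut/mut replicate 2. At the Oasl1 start itself (chr5:114923255-114923489) a peak was called in WT replicate 2 alone, with 10 fragments. Rsad2 (viperin), Ifit2, Bst2 (tetherin), Ifit1 and Isg20 followed, with mean percentiles of 92.6 to 95.2. Mx1, a GTPase that blocks influenza virus, stood at 86.7, 90.2, 90.1 and 90.1, and Mx2, which the annotation lists as a polymorphic pseudogene, at 86.0, 88.6, 87.3 and 87.7.

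At the low end, Oas3 stood at 62.4, 43.8, 55.5 and 81.8, with 8 to 13 fragments at its summit. Peaks of Oas2, Ifit3 and Ifi44 were called in WT replicate 2 alone, at percentiles of 43.8, 24.5 and 7.55 and with 8, 7 and 6 fragments. A peak of that height is close to the limit of calling, so the lack of a call in the other 3 libraries does not show a closed promoter. Ifit2, Ifit1 and Ifit3 are neighbours on chromosome 19, and the first pair stood above the 90th percentile in all libraries while Ifit3 did not reach a reproducible call.

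The guanylate-binding proteins (GBPs) and immunity-related GTPases, which attack vacuoles of intracellular pathogens, had a median of mean percentiles of 88.0 for 6 genes, next to 87.3 for the 5 sensors, the lowest group. Gbp3 led with 88.6, 91.1, 90.5 and 92.1, and Gbp5 was last with 84.2, 79.9, 66.2 and 83.3, where the peak of WT replicate 1 is another than that of the other libraries. The promoter peak of Igtp also lies within 1 kb of a TSS of Irgm2, and that of Ifit1 within 1 kb of a TSS of Ifit1bl2, so these peaks cannot be assigned to 1 gene.

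The last group holds the ubiquitin-like modifier ISG15, its protease USP18 and other regulators. Trim25, a ubiquitin ligase of the RIG-I pathway, stood at 96.3, 97.1, 96.3 and 97.0. Parp14, an ADP-ribosyltransferase, was the lowest at 78.2, 81.0, 76.4 and 81.8. Usp18, Ifi35, Xaf1 and Isg15 had mean percentiles of 86.1 to 93.0. Isg15 itself had 17, 29, 26 and 13 fragments at its summit, a range as wide within a genotype as between the genotypes.

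**Figure D2:**
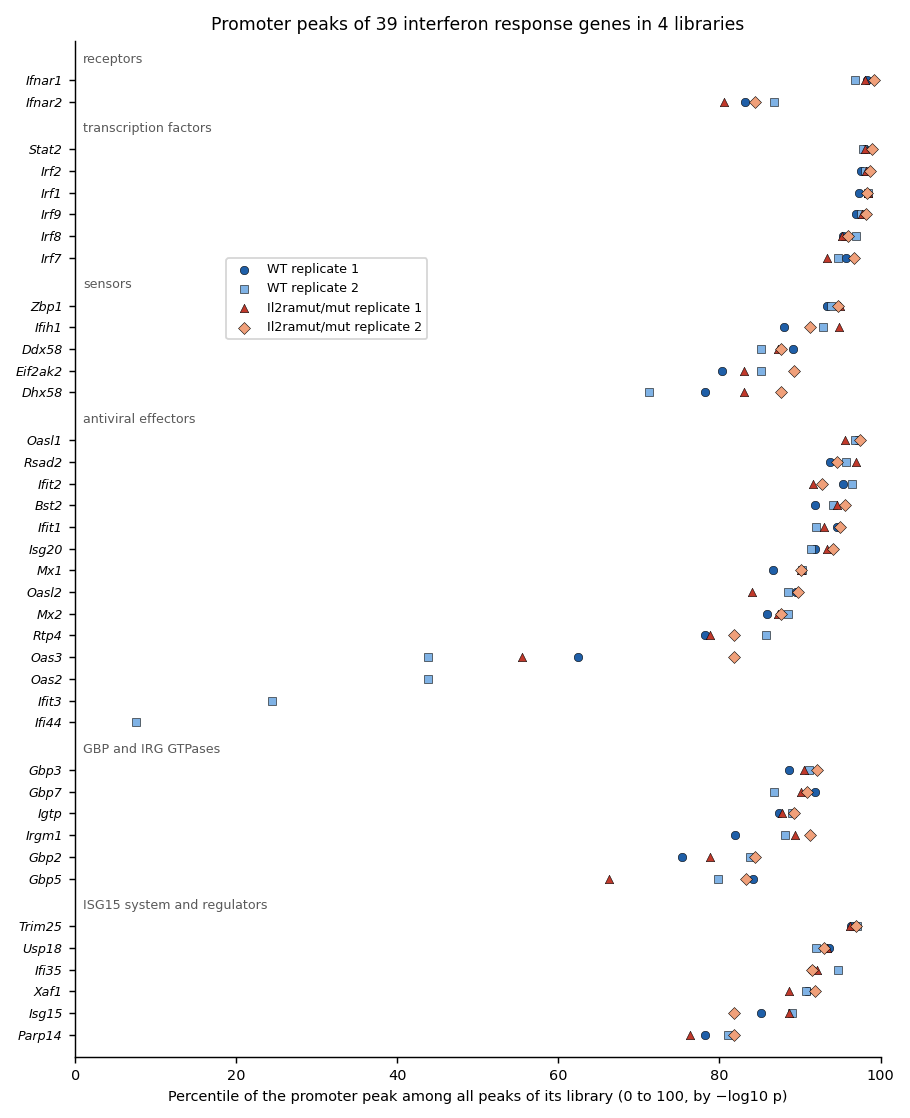
Percentile of the promoter peak by −log10 p among all peaks of its library (0 to 100), for the 39 members in groups by role and ordered within each group by their mean. Symbols are the 4 libraries. Oas2, Ifit3 and Ifi44 have a point for WT replicate 2 only, and the transcription factors lie above 93 in every library.

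Base composition moved with this rank. In 500 bases around the summit, the ratio of observed to expected CpG had a median of 0.359 in the members and of 0.795 in all coding genes with a peak in every library. At a ratio of at least 0.6, a conventional limit for CpG-rich promoters that was chosen after the data were seen, 9 of 36 members (25%) and 81.2% of all such genes were CpG-rich. The 27 CpG-poor members had a median mean percentile of 89.3, beside 90.2 for the 2148 CpG-poor promoters in all. The 9 CpG-rich members, among them Irf1, Irf2, Irf8, Stat2 and Ifnar1, had a median of 96.7, beside 94.8 for 9277 promoters. Within each class the members thus stood within a few points of the other genes. The part of base composition in the ranks was not tested.

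**Figure D3:**
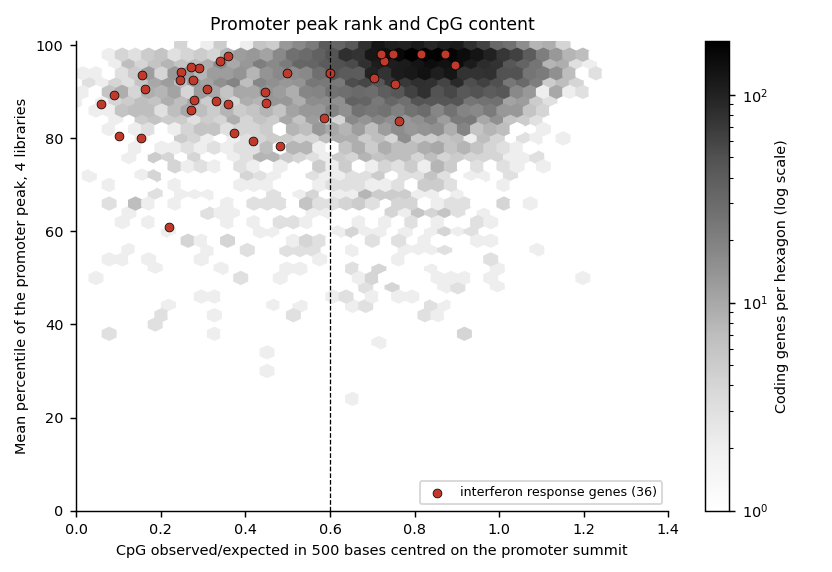
Mean percentile of the promoter peak over 4 libraries against the observed/expected CpG ratio in 500 bases on the summit. Grey hexagons count the 11425 coding genes on a log scale, red points are the 36 members, and the dashed line marks 0.6. Of the members, 27 lie left of the line, beside 2148 of all genes.

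Whether reduced IL-2 signalling altered these promoters was asked next, by a comparison of Il2ramut/mut with WT. No member passed the test: limma on quantile-normalized log2 fold enrichment, with Benjamini-Hochberg adjustment over 11425 promoters, called 0 of 36 members at an adjusted p under 0.05. Over all promoters it called 0 higher (0%) and 2 lower (0.0175%) in Il2ramut/mut. At an unadjusted p under 0.05 stood 1 of 36 members (2.78%), beside 9.3% of all promoters. The median log2 difference was −0.013 over the members and 0.0044 over all promoters, with 16 members higher and 20 lower.

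The 1 member was Ifit2, an RNA-binding inhibitor of translation (chr19:34550694-34576419). Its promoter peak had 45 and 72 fragments in WT replicates 1 and 2 and 35 and 33 in Il2ramut/mut replicates 1 and 2. The percentiles were 95.3 and 96.5 in WT and 91.6 and 92.8 in Il2ramut/mut, so both mutant libraries lay below both WT libraries. The fitted log2 difference was −0.82 ± 0.18 (SE), with a 95% interval of −1.22 to −0.42, the 21st of 11425 promoters by p (adjusted p = 0.359, limma). Scaling the libraries to a common median in place of quantile normalization gave the same difference, −0.82, with an adjusted p of 0.0318. The neighbour Ifit1 had 41, 40, 41 and 45 fragments and a log2 difference of −0.0016 ± 0.22 (SE). An exact permutation test of a single value of 2 against 2 libraries cannot give a p below 0.33. Markers of other cells also differed: the log2 difference was −0.72 ± 0.23 (SE) at Cd8b1 and −0.64 ± 0.23 (SE) at Pecam1 (adjusted p = 0.404 and 0.431, limma), against 0.06 ± 0.23 (SE) at Col1a1. Their part in the result was not tested.

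For the other members the interval of the difference is the more useful statement. Dhx58 had a log2 difference of 0.51 (95% interval −0.04 to 1.06, adjusted p = 0.568, limma), which was 0.29 without WT replicate 2 and 0.14 with promoter peaks within 2 kb. Irgm1, a GTPase that regulates autophagy, had 0.42 (−0.10 to 0.94, adjusted p = 0.608, limma) from 14 and 27 fragments in WT and 28 and 27 in Il2ramut/mut, at percentiles of 81.9 and 88.2 against 89.4 and 91.2. The Irgm1 difference was 0.20 without WT replicate 1 and 0.65 without WT replicate 2. Oasl2 had the lowest difference after Ifit2, at −0.40 ± 0.24 (SE). In the group of ISG15, USP18 and other regulators, all 6 differences were below 0, with a median of −0.18 and none past the test. Irf1, among the members with the narrowest intervals, had a log2 difference of 0.08 (−0.25 to 0.40).

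**Figure D4:**
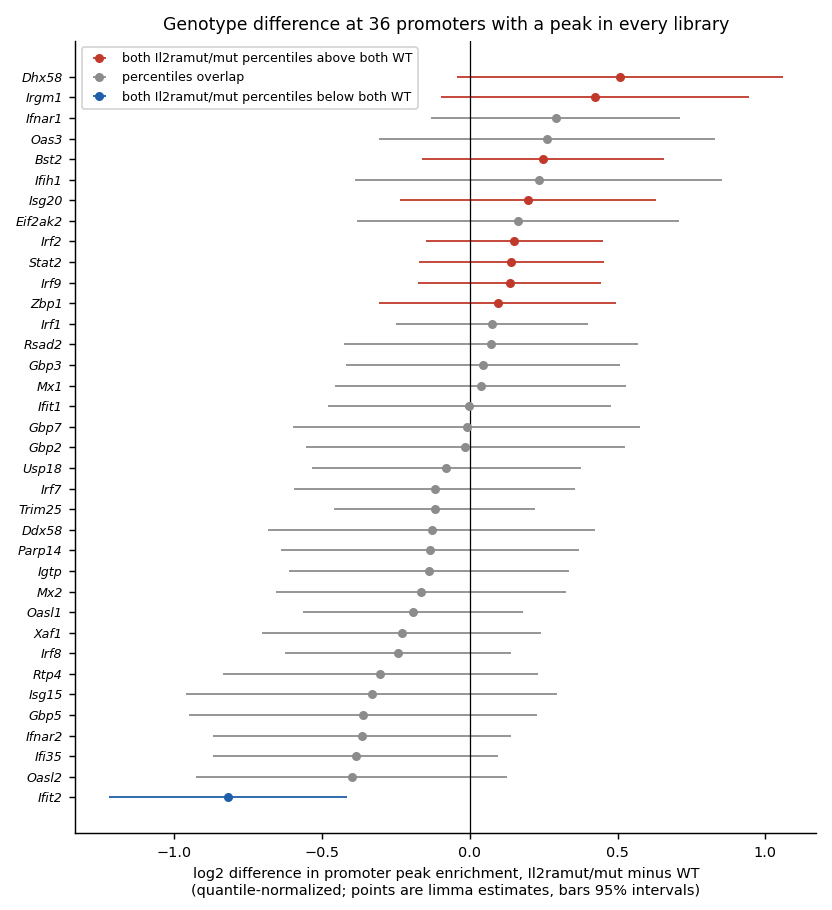
Fitted log2 difference in promoter fold enrichment, Il2ramut/mut minus WT, for the 36 members with a peak in all libraries. Points are limma estimates and bars 95% intervals. Red marks members whose percentiles in both Il2ramut/mut libraries exceeded both WT values, blue the reverse. Ifit2 is the only member whose interval lies away from 0.

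Ranks gave a different split from the fitted levels. The percentiles of the genotypes did not overlap at 9 members, of which 8 were higher (22.2% of 36) and 1 lower (2.78%) in Il2ramut/mut. Over all promoters 31.1% were higher and 10.1% lower in this way. The 8 were Dhx58, Irgm1, Bst2, Isg20, Irf2, Stat2, Irf9 and Zbp1. Stat2 was nearly tied, at 98.1318 in WT replicate 1 and 98.1328 in Il2ramut/mut replicate 1. Bst2 had 91.9 and 94.0 in WT and 94.6 and 95.5 in Il2ramut/mut. Isg20, an exonuclease, had 91.9 and 91.3 in WT and 93.3 and 94.0 in Il2ramut/mut, but its strongest peak was not the same site in both genotypes. The site upstream of Isg20 (chr7:78912146-78912836), strongest in WT, had 30, 37, 37 and 30 fragments, with a log2 difference of −0.05 ± 0.20 (SE). The site over its first exon (chr7:78913463-78914439), strongest in Il2ramut/mut, had 26 and 34 fragments in WT and 43 and 39 in Il2ramut/mut, with a log2 difference of 0.40 ± 0.18 (SE, adjusted p = 0.593, limma).

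The remaining shifts were smaller. Irf2 had 97.5 and 98.1 in WT and 98.2 and 98.7 in Il2ramut/mut. Irf9 had 96.9 and 97.6 in WT and 97.8 and 98.2 in Il2ramut/mut. The lists of WT replicates 1 and 2 held 112569 and 126761 peaks and those of Il2ramut/mut 122776 and 142732. With equal numbers of top peaks per library, 6 members were higher and 10 lower, and all promoters split into 21.9% and 18.6%. The order of the 36 members was much the same in all libraries, with Spearman correlations of 0.918 between the WT libraries, 0.940 between the Il2ramut/mut libraries and 0.910 to 0.950 across genotypes, given as a description since the points share libraries.

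Outside the promoters, 98 regions lay at the loci, of which 44 were in introns, 5 in exons, 22 upstream and 27 downstream. Of these, 31 were called in all 4 libraries and 44 in 1 library only. Genome-wide, 14.1% of the 272233 regions were called in all 4. Unlike the 98, that set includes promoters and regions far from genes. The number per locus varied from 0 at Irf9, Stat2, Bst2, Xaf1 and Zbp1 to 8 at Usp18, and Irf2 and Ifi44 had 7 each. None of those of Ifi44 was called in all 4 libraries.

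The strongest of the regions was an intronic one in Irf2 (chr8:46755792-46756473), 16.4 kb downstream of the TSS, at percentiles of 96.9, 97.4, 95.5 and 97.4. Next came a region 26.7 kb from the nearest TSS of Usp18 and beyond its 3' end (chr6:121272053-121272936), at 96.0, 94.4, 95.5 and 93.7. An intron of Oas3 held a region (chr5:120775257-120776183) at 91.9, 94.5, 94.9 and 95.1, well above the Oas3 promoter itself. The region downstream of Oasl1 (chr5:114941919-114942580) stood at 94.2, 93.6, 92.7 and 95.5, and lies within 1 kb of a TSS of 2210016L21Rik. The fifth was downstream of Trim25 (chr11:89023961-89024701). At Irf2 and Oas3 the strongest site outside the promoter thus lay inside the gene.

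No region differed between the genotypes after adjustment. Over 38426 regions called in all 4 libraries limma called 0 (0%) in either direction, with 8.55% at an unadjusted p under 0.05. Of the 71 regions at the loci, promoters included, 4 stood at an unadjusted p under 0.05. Besides the Ifit2 promoter these were an intronic site of Parp14 and sites at Trim25 and Irf8.

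The Parp14 site (chr16:35868992-35869547, 2.23 kb downstream of the TSS, in an intron) was the only 1 of the 4 that was higher in Il2ramut/mut. It had 10 and 14 fragments in WT and 25 and 26 in Il2ramut/mut, at percentiles of 70.7 and 78.5 against 88.3 and 90.9, with no overlap. The log2 difference was 1.03 ± 0.24 (SE) (adjusted p = 0.582, limma), and that of the Parp14 promoter −0.14 ± 0.23 (SE).

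The Trim25 site, 24.9 kb from the TSS, had 40 and 66 fragments in WT and 37 and 30 in Il2ramut/mut, at percentiles of 94.4 and 96.0 against 92.1 and 92.1. Its log2 difference was −0.67 ± 0.18 (SE) (adjusted p = 0.582, limma). An adjacent site 23.2 kb from the TSS (chr11:89022270-89022831) was called in WT at 87.4 and 91.1, in Il2ramut/mut replicate 2 at 83.3 and not in replicate 1. Wherever called, both Trim25 sites were lower in the mutant libraries, and the promoter differed by −0.12 ± 0.16 (SE). The intronic Irf8 site (chr8:120751624-120752640) had 20 and 39 fragments in WT and 17 and 19 in Il2ramut/mut, at percentiles of 87.4 and 91.8 against 83.0 and 87.7, which overlapped, with a log2 difference of −0.64 ± 0.25 (SE) that was −0.42 without WT replicate 2.

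**Figure D5:**
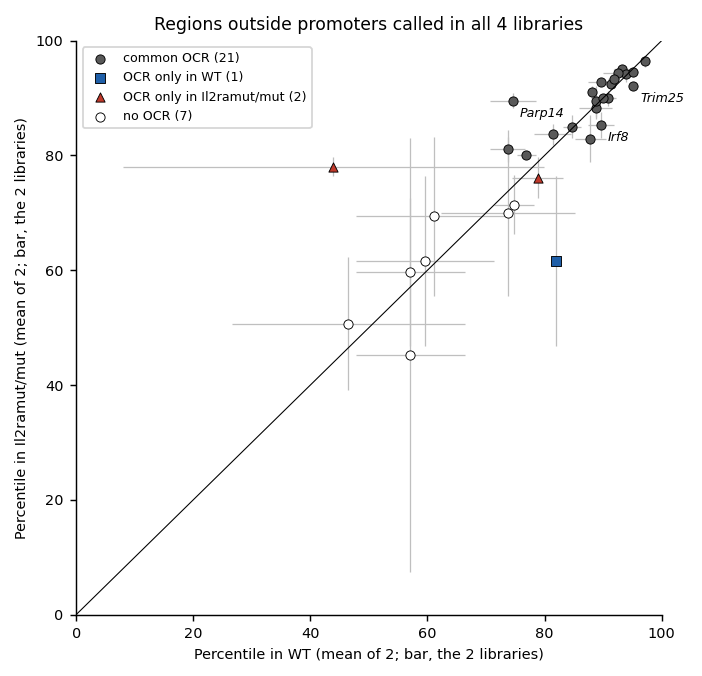
Mean percentile in Il2ramut/mut against mean percentile in WT for the 31 regions outside promoters that were called in all 4 libraries. Bars join the 2 libraries of each genotype, the line marks equal ranks, and symbols give the class by reproducible open chromatin. The named points are the 3 regions with an unadjusted p under 0.05, with Parp14 above the line and Trim25 and Irf8 below it.

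Percentiles did not overlap at 15 of the 71 regions that were higher (21.1%) and 4 that were lower (5.63%) in Il2ramut/mut, beside 26.2% and 12.6% of all regions called in every library. Called in both libraries of a genotype and in neither of the other were 4 regions for WT and 1 for Il2ramut/mut. Genome-wide 2.7% of regions met the first condition and 3.56% the second. The strongest of them lay upstream of Irgm1 (chr11:48872029-48872475), within 1 kb of the TSS, with 12 and 13 fragments in WT and no call in Il2ramut/mut. The others outside promoters were weak. They were downstream of Dhx58 (26.6 and 66.3 in WT), downstream of Usp18 (47.7 and 24.5 in WT), in an intron of Mx2 (7.92 and 24.5 in WT) and downstream of Irgm1 (39.1 and 71.4 in Il2ramut/mut).

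Reproducible open chromatin regions (OCRs) were then defined by an irreproducible discovery rate (IDR) of at most 0.05 between the libraries of a genotype, and compared between genotypes by overlap. Of 65 OCRs at the loci, 55 were common (84.6%), 6 were found in WT only (9.23%) and 4 in Il2ramut/mut only (6.15%). Genome-wide 14.4% of 29229 OCRs were unique to WT and 13.7% to Il2ramut/mut. At least 1 OCR lay at 37 of 39 members, and 35 had one at the promoter. Breaking ties in rank differently left 3 rather than 4 in Il2ramut/mut only.

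The WT-only OCRs were upstream of Irgm1 and Gbp3, in introns of Gbp5, Ifnar2 and Dhx58, and the adjacent Trim25 site. Those at Irgm1, Gbp3, Gbp5 and Ifnar2 were promoter sites by the limit of 1 kb from a TSS. Those found in Il2ramut/mut only were the Dhx58 promoter, a site upstream of Gbp5, and sites downstream of Mx1 and Ifnar2. Of these 10, 6 had a peak in all 4 libraries and 3 in 3 libraries. At Irgm1 alone was no peak called in the other genotype. At the Dhx58 promoter a peak was called in every library, and WT missed the threshold with an IDR of 0.0599. The intronic Dhx58 site, 1.59 kb into the gene, had 14 and 17 fragments in WT and 13 and 8 in Il2ramut/mut (log2 difference −0.58 ± 0.29 SE, adjusted p = 0.612, limma). The site upstream of Gbp5 (chr3:142490468-142490822) had 6 and 15 fragments in WT against 13 and 12, and that downstream of Mx1 (chr16:97443677-97444294) had 15 and 12 against 12 and 12. Upstream of Gbp3 (chr3:142559565-142559952) were 12 and 19 fragments in WT and 11 and 10 in Il2ramut/mut. The Gbp5 intron (chr3:142497091-142497820) had 13 and 15 against 11 and 14. That site held the Gbp5 promoter peak of each library but WT replicate 1. In the Ifnar2 intron (chr16:91373635-91374637) WT had 10 and 15 fragments, Il2ramut/mut replicate 2 had 11 and replicate 1 had no call. Downstream of Ifnar2 (chr16:91407827-91408268) WT replicate 2 had 7 fragments and the Il2ramut/mut libraries 12 and 11.

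The rest of the pathway was described by 47 further genes. Of the 7 ligand genes, 6 had no promoter peak in any library, and Ifng had one in 3 of 4. The signalling genes were open throughout, with 9 of 9 called in all libraries and a median of mean percentiles of 97.1. Stat3 (99.5 to 99.7) and Tyk2 (98.1 to 98.7) were among the highest. Of 10 genes that induce interferon 8 were called in every library, and of 17 other interferon targets 14. None of the 34 fitted genes passed the adjusted test, while 3 higher and 3 lower in Il2ramut/mut had an unadjusted p under 0.05 (17.6% of 34, beside 9.3% of all promoters).

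The values of these 6 genes are given as a description, since they were chosen after being seen. Ifngr2, which encodes the signalling chain of the interferon γ receptor (chr16:91547072-91565623), lies in the cluster of Ifnar2, Il10rb and Ifnar1. Its promoter peak had 25 and 35 fragments in WT and 12 and 11 in Il2ramut/mut, at percentiles of 90.02 and 90.8 against 72.6 and 76.5. The log2 difference was −1.35 ± 0.22 (SE), the 4th of 11425 by p (adjusted p = 0.192, limma). It was −0.65 with peaks within 500 bp of a TSS and −0.76 with peaks within 2 kb. With libraries scaled to a common median the adjusted p was 0.0020. Ifngr1, the ligand-binding chain, had the opposite sign, at 98.5 and 98.4 in WT and 99.2 and 99.4 in Il2ramut/mut (log2 difference 0.41 ± 0.12 SE, adjusted p = 0.402). The neighbours Ifnar1, Ifnar2 and Il10rb differed by 0.29 ± 0.19, −0.37 ± 0.23 and 0.15 ± 0.23 (SE). Whether these differ from Ifngr2 was not tested.

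Tlr7, an X-linked endosomal RNA sensor, had 11 and 15 fragments in WT and 7 and 6 in Il2ramut/mut (75.3 and 79.9 against 5.42 and 7.34; log2 difference −0.93 ± 0.23 SE, adjusted p = 0.363). Irf3, Socs3 and Ifi203 had the other values with an unadjusted p under 0.05, at −0.58, 0.43 and 0.62. The mutated gene itself, Il2ra, had a promoter peak of 41 and 58 fragments in WT and 29 and 27 in Il2ramut/mut (log2 difference −0.86 ± 0.19 SE, adjusted p = 0.359). As the mutation alters 1 amino acid, this value does not test the labels.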

How the data were processed

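ATAC-seq libraries of 50000 sorted LN Treg cells were analysed, 2 per genotype. Per the labels, the authors trimmed reads (Trim Galore 0.3.7), aligned them to mm10 (BWA 0.7.13), and used SAMtools (0.1.19) and Picard (1.92). Duplicate and mitochondrial reads were removed, read pairs had to map concordantly, reads were shifted for the transposase, and narrow peaks were called in each library on its own (MACS2 2.1.0). The deposited fold ratio (column 7), the deposited −log10 p and −log10 q (columns 8 and 9), the score and the summit offset are the authors' values. How reads shared by near-identical genes were treated is not given in the sources used here, so peaks in the Ifit, Oas, Gbp and Irgm families carry that uncertainty.

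Fragments at a summit were recovered as the whole number that, with 1 added to it and to the background, gave the deposited ratio. All ratios were within 0.05 of a whole number, and the Poisson probability of these numbers differed from the deposited −log10 p by at most 1.76e-05 in the peaks where it could be computed (112420 of 112569, 126225 of 126761, 122404 of 122776 and 142354 of 142732). Fragments were counted for called peaks only, so no count test was run. Peaks were assigned to genes of the GENCODE basic annotation (vM21 release for GRCm38), and entries for polymorphic pseudogenes were kept because Mx2 is one. Of the 48 other pathway genes listed, 47 were matched by symbol.

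Log2 ratios were quantile-normalized and compared with limma (3.58.1, R 4.3.3) with a mean-variance trend, on all promoters or regions called in all 4 libraries, with Benjamini-Hochberg adjustment. IDR, percentiles and motif searches used pysam (0.24.0), scipy (1.17.1), pandas (2.3.3) and numpy (2.4.6) under Python (3.11.15), with promoter sequence from the GRCm38 assembly of RefSeq. Figures were drawn with matplotlib (3.10.9). The fit and the IDR step were tested on simulated data. The labels give 2 mice per genotype, and p-values measure the spread between these libraries.

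The members, their role groups, the further pathway genes and the cell markers were chosen with earlier results of these data known. Named were all members with fewer than 4 promoter calls, those with an adjusted p under 0.05, the 5 largest and 5 smallest differences among members with non-overlapping percentiles, and the highest and lowest member of each role group. Regions outside promoters were named for the 5 highest mean percentiles, an adjusted p under 0.05, calls in 1 genotype only or an OCR in 1 genotype only. Sequences were printed for up to 12 promoters with an ISRE core. The regions with an unadjusted p under 0.05, the Y-linked genes and the pathway genes named with values were chosen after their values were seen. Alternatives were a replicate block, median scaling, log2 of −log10 p, a −log10 q of at least 3, other promoter distances and TSS sets, regions from summits, other IDR settings and overlaps, other motif windows, and leaving out each library. Other tissues, cell types and assays of the study are not analysed here. Some listed genes are not reported here by name.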

Additional observations from a re-analysis of the deposited data

How the results depend on the processing

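The number of members called was 0 under every alternative for promoters and for regions at the loci except median scaling, which called 1 promoter (Ifit2, adjusted p = 0.0318) and 1 region, the same promoter. Median scaling also raised the calls over all promoters to 9 higher and 44 lower, and over all regions to 142 higher and 176 lower. Promoters within 500 bp gave 9 lower and within 2 kb 1 higher, and regions with a −log10 q of at least 3 gave 1 higher. Leaving out each library in turn gave 0 to 0 calls in either direction for promoters and for regions, with 643 to 824 promoters and 2831 to 4379 regions at an unadjusted p under 0.05. The lone library of a genotype is then assumed to vary like the other group. The Ifit2 difference ran from −0.92 to −0.73 without each library in turn, and its adjusted p from 0.0318 to 0.677 over all alternatives. The differences of Bst2, Isg20, Irf2, Stat2, Irf9 and Zbp1, 0.09 to 0.25 with all libraries, ran from 0 (Zbp1 without Il2ramut/mut replicate 1) to 0.39 (Bst2 without WT replicate 2) with 1 library left out. Without the IDR step 14 and 8 OCRs were found in WT only and in Il2ramut/mut only. Lower ranks without overlap numbered 2 with promoters within 500 bp and 10 with equal numbers of top peaks. The ISRE core was found in 20 to 28 members across the windows and the 1-mismatch search.

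The replicate numbers were not taken as pairs in the main fit. Deviations of same-numbered libraries correlated at −0.00836 over promoters and 0.0109 over regions. These values show no shared shift, but they cannot tell whether same-numbered libraries were prepared together. With the replicate block the calls over all promoters fell to 0 higher and 0 lower (1019 at an unadjusted p under 0.05), and members and regions stayed at 0.

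Promoters with under 10 fragments at the summit in some library, such as those of Oas2, Ifit3, Ifi44 and Oas3, are near the calling limit. Peak lists also drop sites that missed the threshold in a library, so a fitted difference exists only where all 4 libraries had a call.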
